A study of Mus musculus with 18 samples.

Results

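A set of 9 genes of bone morphogenetic protein (BMP) signalling were followed through 2 RNA-seq experiments on mouse embryonic stem cells (mESCs): the ligand gene Bmp4, the receptor gene Bmpr1a, the signal transducers Smad1 and Smad5, the inhibitory Smad6, and the inhibitor of DNA binding genes Id1, Id2, Id3 and Id4. They were chosen by gene symbol, and all 9 were found among the 24369 genes of the deposited expression table. The first experiment was a differentiation time course of days 0, 1, 2 and 3 with 3 libraries per day, made from E14 mESCs of the genotype Rex1GFPd2-Cas9, which carry a GFP reporter at Rex1 (Zfp42), a gene of naive pluripotency, and Cas9 at the Rosa26 locus. The second was GFP+ cells of 3 genotypes with 2 libraries each: Rex1GFPd2-Cas9 (wild-type), Rex1GFPd2-Cas9 Nprl2-/- (Nprl2 KO) and Rex1GFPd2-Cas9 Tsc2-/- (Tsc2 KO). Nprl2 is a subunit of the Gator1 complex and Tsc2 of the Tsc complex, both negative regulators of the growth kinase complex mTORC1. Reporter and Cas9 were therefore shared by all 18 libraries, also by the wild-type controls.

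The knockouts were made by deleting a critical exon on both alleles with a pair of guide RNAs, and the GFP+ cells were sorted from cultures in serum and LIF on feeder fibroblasts. In the paper's general methods, differentiation was induced in a medium with serum replacement and albumin. This medium lacked LIF and the inhibitors of the kinases MEK and Gsk3. The culture of the day 0 cells and the preparation of the time-course libraries are not given in the sources used here. The part of a change of medium in the values after day 0 was not tested. The labels do not say whether replicates were separate clones or cultures, so the p values measure only the spread between these libraries, which may be technical. The experiments were fitted separately, and no test was made between them.

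BMP ligands bind receptor kinases of type I, such as Bmpr1a, and of type II, which phosphorylate Smad1 and Smad5. These enter the nucleus with Smad4 and switch on target genes, of which the Id genes are the best known, and Smad6 and Smad7, which feed back to inhibit the pathway. Id proteins lack a DNA-binding region and sequester E proteins such as Tcf3 and Tcf12, which keeps E proteins off their targets. In mESCs grown in serum and LIF, BMP from serum or from the cells themselves is known to maintain self-renewal through Id genes.

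The libraries held between 12503005 and 15305054 estimated counts in the time course and between 8610357 and 13780861 in GFP+ cells. Each library was most correlated with another of its own group (12 of 12 and 6 of 6). As a check of the labels, Nprl2 was at 16.5 TPM ± 0.63 (SD, n = 2) in wild-type and 8.37 TPM ± 0.40 where it was deleted, a log2 fold change (log2FC) of -0.96 (SE 0.18, adjusted p = 0.00888), and Tsc2 was at 45.0 TPM ± 0.03 in wild-type and 19.5 TPM ± 1.08 in Tsc2 KO, a log2FC of -1.23 (SE 0.08, adjusted p = 9.74e-07). TPM is a level scaled for transcript length and library total. The mESC marker Pou5f1 was at 1102 TPM or more in every time-course library. The summed level of 10 fibroblast markers lay between 9.73 and 43.1 TPM in the time course, where Lum was at 0 on days 0, 2 and 3, and reached 124 to 163 TPM in wild-type GFP+ cells, 124 to 125 TPM without Nprl2 and 40.5 to 149 TPM without Tsc2. Col1a1, a collagen of fibroblasts, was at 61.4 TPM ± 13.2, 55.1 TPM ± 0.56 and 37.7 TPM ± 32.0 in the same order. Of the 7 fibroblast markers tested in the GFP+ experiment, 0 passed the edgeR test in any of its comparisons, 0 passed with DESeq2, and at an unadjusted p under 0.05 the number was 0 for either KO against wild-type and 1 between the KOs. Their log2FC values in Tsc2 KO lay between -1.40 and 0.36. The part of fibroblast RNA in the values of GFP+ cells was not tested.

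The first day of differentiation changed more of the 9 genes than any later step. Against day 0, Bmp4, Smad1, Smad6, Id1, Id3 and Id4 fell on day 1, Bmpr1a and Id2 rose, and Smad5 did not pass the test. All 9 genes passed the filter on low counts in both experiments. In this comparison 60.9% of the 14382 genes tested passed an adjusted p of 0.05, with 30.8% lower and 30.1% higher, against 8 of the 9 genes, 6 lower and 2 higher. The median log2FC was -0.93 over the 9 genes and 0.00 over all genes tested.

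**Figure D1:**
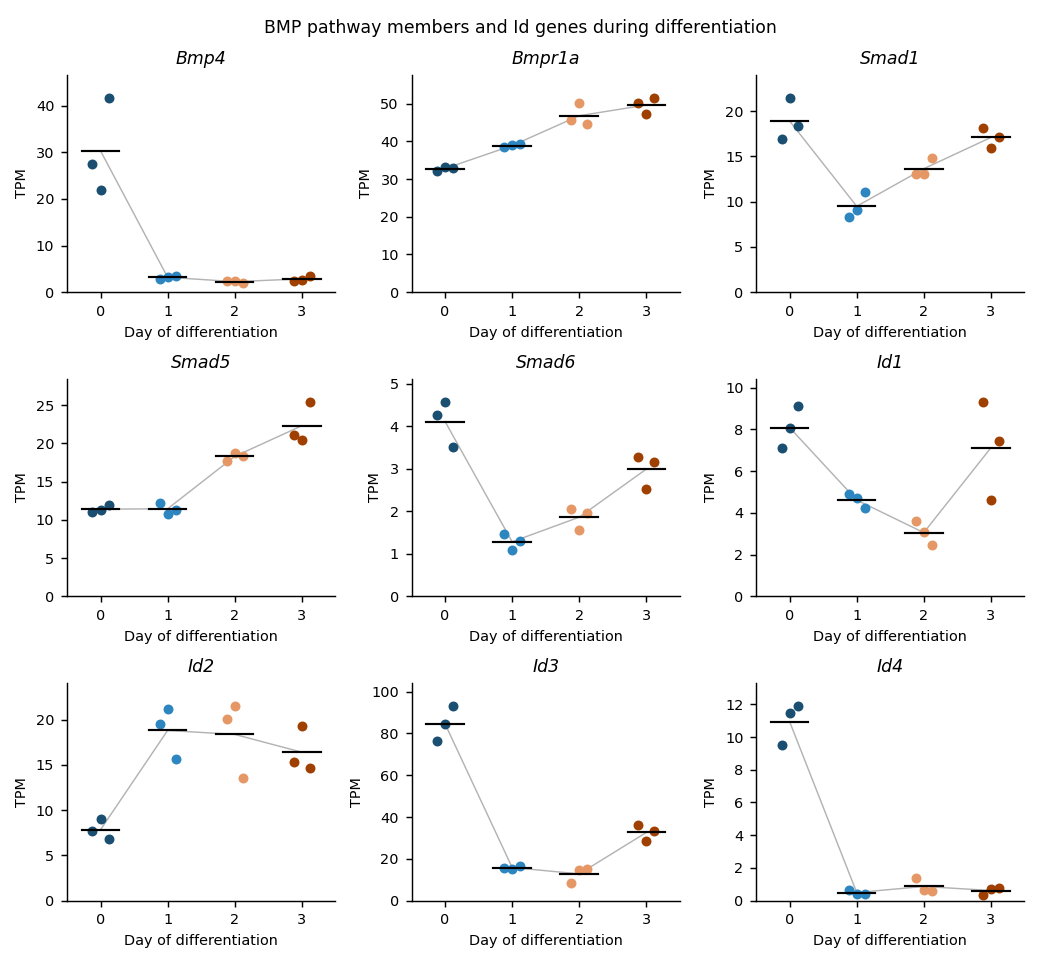
Levels in TPM (vertical axes, each starting at 0) of the 9 genes on days 0 to 3 (horizontal axes). Each point is a library, black bars are the means of 3 libraries and grey lines join the means. Bmp4 and Id4 were low in every library after day 0 (up to 3.53 and 1.35 TPM), and Id3 and Id1 were lowest on day 2. Id2 ran the other way, with every library after day 0 above the highest of day 0 (8.96 TPM).

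Bmp4, the ligand, was at 27.4, 21.9 and 41.7 TPM in the day 0 libraries and at 2.86, 3.21 and 3.53 TPM on day 1. The day 0 libraries were widely spread, yet the lowest was well above every library of a later day. The log2FC was -3.17 (SE 0.22, adjusted p = 1.16e-09), a 9.01-fold fall, and 97.4% of the genes tested had a smaller change. On days 2 and 3 the libraries lay between 2.03 and 2.37 TPM and between 2.49 and 3.42 TPM. Neither step passed the test, with log2FC values of -0.61 (SE 0.29, adjusted p = 0.0784) from day 1 to day 2 and 0.28 (SE 0.30, adjusted p = 0.501) from day 2 to day 3. All libraries of day 2 were below those of day 1, however. The fall from day 1 to day 2 passed in edgeR with only the 2 groups compared (adjusted p = 0.0187) and with the replicate block (0.0334). The level on day 3 remained 3.50 below that of day 0 on the log2 scale (log2FC -3.50, SE 0.22, adjusted p = 2.02e-10).

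Bmpr1a, the type I receptor, rose in small steps with little spread. It was at 32.8 TPM ± 0.51 (SD, n = 3) on day 0, 38.9 TPM ± 0.37 on day 1, 46.8 TPM ± 2.95 on day 2 and 49.6 TPM ± 2.20 on day 3. The log2FC was 0.32 (SE 0.06, adjusted p = 0.000132) over the first day and 0.51 (SE 0.06, adjusted p = 2.35e-07) from day 0 to day 3. The step from day 1 to day 2 (0.16, adjusted p = 0.0273) did not pass with DESeq2 (adjusted p = 0.0621) and was 0.26 with limma on log2(TPM + 1), and days 2 and 3 did not differ beyond their spread (adjusted p = 0.637). The ligand and its receptor thus went in opposite directions over the time course.

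Smad1 and Smad5, the transducers that the receptor phosphorylates, had different courses. Smad1 was at 16.9, 21.5 and 18.3 TPM on day 0 and at 8.27, 9.08 and 11.1 TPM on day 1, a log2FC of -0.93 (SE 0.11, adjusted p = 5.91e-07). It then rose by a log2FC of 0.41 (SE 0.11, adjusted p = 0.0038) to 13.6 TPM ± 1.05 on day 2, and on day 3 it was at 17.1 TPM ± 1.13. This last step did not pass (0.28, SE 0.11, adjusted p = 0.0513), though it did without day 2 replicate 3 (0.031) or day 3 replicate 2 (0.0463). The groups of days 0 and 3 overlapped (log2FC -0.23, SE 0.10, adjusted p = 0.0517). The value against day 0 passed the threshold when day 0 replicate 1 (adjusted p = 0.0208) or day 3 replicate 1 (adjusted p = 0.0343) was left out. Smad5 was at 11.4 TPM on both days 0 and 1 (log2FC 0.08, SE 0.08, adjusted p = 0.423) and then rose to 18.3 TPM ± 0.50 on day 2 and 22.3 TPM ± 2.70 on day 3. Its log2FC was 0.57 (SE 0.08, adjusted p = 3.9e-06) from day 1 to day 2 and 0.88 (SE 0.08, adjusted p = 4.71e-09) from day 0 to day 3.

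The balance of the transducers changed with this. The ratio of Smad1 to Smad5 TPM was 1.66 ± 0.22 (SD, n = 3) on day 0 and lay at 0.834 ± 0.156, 0.746 ± 0.057 and 0.773 ± 0.093 on days 1, 2 and 3. All day 0 libraries were above 1.5 and all 9 later libraries below 1. The exact permutation test (two-sided) between days 0 and 1 gave p = 0.1, the smallest value that 3 against 3 libraries allow.

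Smad6, the inhibitory Smad, followed the falling genes on day 1 and then recovered in part. It was at 4.26, 4.57 and 3.50 TPM on day 0 and at 1.47, 1.09 and 1.29 TPM on day 1 (log2FC -1.61, SE 0.20, adjusted p = 9.97e-07). The rise from day 1 to day 2 did not pass the edgeR test (0.42, SE 0.22, adjusted p = 0.105) but passed with limma on log2(TPM + 1) (adjusted p = 0.0458). From day 2 to day 3 it rose by 0.64 (SE 0.20, adjusted p = 0.0179), to 2.99 TPM ± 0.40. Day 3 remained below day 0, with a log2FC of -0.55 (SE 0.18, adjusted p = 0.00965), which was -0.36 with limma on log2(TPM + 1). Without day 3 replicate 2 it was -0.45 and did not pass (adjusted p = 0.0528).

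The Id genes are targets of Smad1 and Smad5, and their starts are shown here because Id2 moved against Id3 and Id4. In genome build GRCm38.p6, Id1 lies on chromosome 2 (152736251 to 152737410), Id2 on chromosome 12 (25093799 to 25096092), Id3 on chromosome 4 (136143822 to 136145392) and Id4 on chromosome 13 (48261116 to 48266028). The RefSeq promoter table of this build held 8 of the 9 genes, without Id1. The 250 bases upstream of the start were searched on both strands for the GC-rich Smad1 and Smad5 motif GGCGCC, which reads alike on both strands, for the Smad motif CAGAC, and for a composite of the first, any 5 bases and GTCT. The sequences, each upstream of the gene's start and outside the gene body, are those of Id2 (chr12:25096093-25096342, minus strand), Id3 (chr4:136143572-136143821, plus strand) and Id4 (chr13:48260866-48261115, plus strand). Capitals mark the motifs found.
Id2: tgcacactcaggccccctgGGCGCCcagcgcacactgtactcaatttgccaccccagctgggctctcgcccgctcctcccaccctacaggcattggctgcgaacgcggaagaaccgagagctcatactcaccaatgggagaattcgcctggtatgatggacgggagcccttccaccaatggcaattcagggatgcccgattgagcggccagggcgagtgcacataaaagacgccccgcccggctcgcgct
Id3: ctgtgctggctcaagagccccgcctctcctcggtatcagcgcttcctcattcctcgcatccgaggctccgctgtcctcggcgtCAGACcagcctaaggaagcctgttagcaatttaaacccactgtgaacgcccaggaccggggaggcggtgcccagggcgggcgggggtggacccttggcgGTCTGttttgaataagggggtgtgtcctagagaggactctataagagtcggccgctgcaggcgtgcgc
Id4: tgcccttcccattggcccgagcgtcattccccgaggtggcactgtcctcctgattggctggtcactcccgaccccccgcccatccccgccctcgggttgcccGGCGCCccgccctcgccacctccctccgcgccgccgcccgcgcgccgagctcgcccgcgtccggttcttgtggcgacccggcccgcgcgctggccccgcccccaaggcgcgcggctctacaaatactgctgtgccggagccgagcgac

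Id2 and Id4 each held GGCGCC, at -231 to -226 and at -148 to -143 with -1 the last base before the start. Id3 held CAGAC at -167 to -163 and, on the other strand, at -68 to -64. Outside the Id genes, Bmpr1a held GGCGCC at -198 to -193, and Smad5, which has 3 starts in the table, held GGCGCC at -19 to -14 of the second and CAGAC at -21 to -17 of the third. The Bmpr1a window and the third of Smad5 lie inside the gene's span. So do the last 42 bases of the second of Smad5, which hold its GGCGCC, and 26 bases of the Smad6 window. Bmp4, Smad1 and Smad6 held neither. Of the 27025 promoters of this length, 9.54% held GGCGCC and 42.1% held CAGAC. The composite was in 0.0703% of promoters and in none of the windows of the 8 genes. Id2, which rose, and Id4, which fell, therefore both carried the GC-rich letters. Such matches describe letters in these windows and are not evidence of binding.

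Id3 had the highest level of the 4 Id genes on day 0. Its libraries were at 76.3, 84.5 and 93.0 TPM on day 0 and at 15.6, 15.1 and 16.6 TPM on day 1, a log2FC of -2.35 (SE 0.14, adjusted p = 5.63e-11). On day 2 they were at 8.56, 14.7 and 15.1 TPM. The further fall of 0.42 on the log2 scale (SE 0.17, adjusted p = 0.0434) became a log2FC of -0.21 without the lowest library, day 2 replicate 1 (adjusted p = 0.257). On day 3 Id3 rose again to 36.3, 28.4 and 33.1 TPM, and no library overlapped with those of day 2 (log2FC 1.31, SE 0.16, adjusted p = 1.14e-05). The order of the means was day 0, day 3, day 1 and day 2.

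In the main fit Id4 fell the furthest of the 9 genes. It was at 9.50, 11.4 and 11.9 TPM on day 0 and at 0.669, 0.427 and 0.375 TPM on day 1. The log2FC was -4.37 (SE 0.30, adjusted p = 3.53e-10), and 99.1% of the genes tested changed less. Its size depends on the setting. The weakest log2FC among alternatives other than leaving out a library was -3.00, beside -2.85 for Bmp4. From day 0 to day 3 the weakest values were -2.89 for Id4 and -2.98 for Bmp4. The later libraries were all at 1.35 TPM or less, which rested on 4 to 14 estimated counts per library, so the steps from day 1 to day 2 (0.67, SE 0.45, adjusted p = 0.202) and from day 2 to day 3 (-0.54, SE 0.43, adjusted p = 0.364) were not resolved at this depth.

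Id1 fell and returned. It was at 7.11, 8.05 and 9.11 TPM on day 0, at 4.92, 4.69 and 4.23 TPM on day 1, at 3.60, 3.08 and 2.48 TPM on day 2 and at 9.31, 4.59 and 7.45 TPM on day 3. Days 0 and 3 overlapped (log2FC -0.27, SE 0.24, adjusted p = 0.326). The rise from day 2 to day 3 was 1.17 on the log2 scale (SE 0.28, adjusted p = 0.00386). The fall over the first day (-0.73, SE 0.25, adjusted p = 0.0172) did not pass with DESeq2 (adjusted p = 0.0524) or without day 0 replicate 3 (0.0569) or day 1 replicate 3 (0.0576). The fall from day 1 to day 2 (-0.71, SE 0.30, adjusted p = 0.0446) did not pass with DESeq2 (adjusted p = 0.0849).

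Id2 was the only Id gene that rose over the first day. It was at 7.71, 8.96 and 6.82 TPM on day 0 and at 19.5, 21.2 and 15.7 TPM on day 1 (log2FC 1.33, SE 0.19, adjusted p = 9.68e-06). Days 1, 2 and 3 overlapped with each other, with means of 18.8, 18.4 and 16.4 TPM and SDs of 2.85, 4.25 and 2.47 TPM. The steps between them did not pass the test (adjusted p = 0.484 and 0.402). Against day 0 the log2FC on day 3 was 0.98 (SE 0.20, adjusted p = 0.000226).

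**Figure D2:**
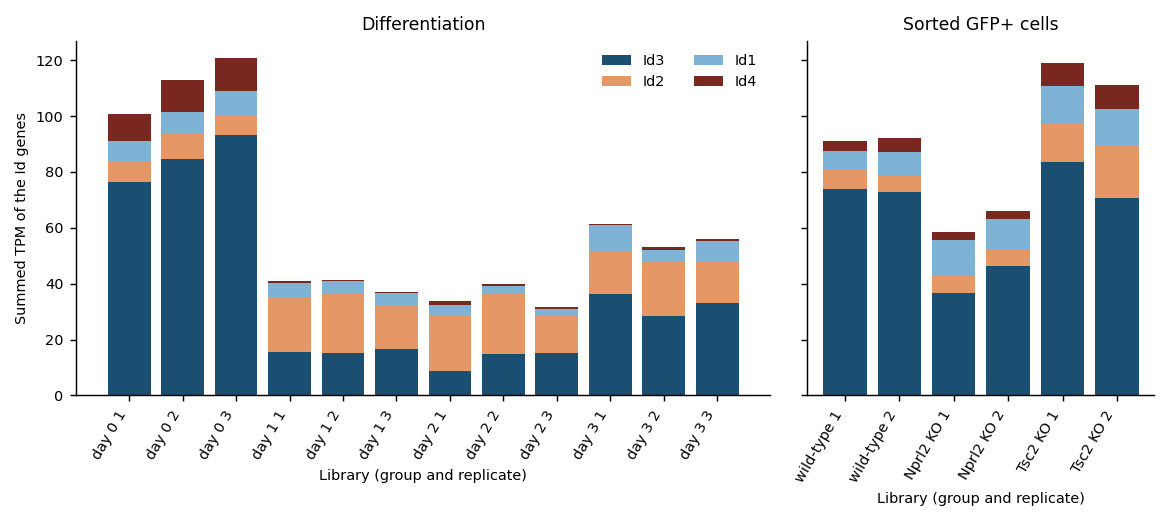
Summed TPM of the 4 Id genes in each library (vertical axis), with the part of each gene in colour. The left panel has the 12 time-course libraries and the right panel the 6 GFP+ libraries. The sum fell from 101 to 121 TPM on day 0 to 36.9 to 41.5 TPM on day 1, while the part of Id2 (orange) grew.

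Summed over the family, Id transcripts were at 111 TPM ± 10.2 (SD, n = 3) on day 0, 39.7 TPM ± 2.45 on day 1, 35.0 TPM ± 4.29 on day 2 and 56.7 TPM ± 4.20 on day 3. The composition shifted as well. Id2 made up 7.08% ± 1.25 of the summed TPM on day 0, 47.2% ± 4.41 on day 1, 52.1% ± 8.68 on day 2 and 29.2% ± 6.24 on day 3, while Id3 went from 75.9% ± 1.10 to 40.0% ± 4.52, 36.6% ± 11.1 and 57.3% ± 3.22. The libraries of days 0 and 1 did not overlap in the sum or in either share (exact permutation test, two-sided, p = 0.1 for each of the 3, the smallest possible with 3 against 3).

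Each step after day 1 changed fewer of the 9 genes than the first day did. From day 1 to day 2, 62.1% of all genes passed the test, and so did 5 of the 9: Bmpr1a, Smad1 and Smad5 rose (32.5% of all genes did), and Id1 and Id3 fell (29.6%). Smad1 and Smad5 passed without each library in turn. The calls of Bmpr1a, Id1 and Id3 were lost without any of the day 1 libraries, and also without day 2 replicate 2 for Bmpr1a and Id1, without day 2 replicate 3 for Id1 and without day 2 replicate 1 for Id3. Their adjusted p then lay between 0.0595 and 0.154 for Bmpr1a, between 0.0528 and 0.138 for Id1 and between 0.0656 and 0.257 for Id3. From day 2 to day 3, 31.5% of all genes passed and 4 of the 9 rose, namely Smad5, Smad6, Id1 and Id3, with 15.9% of all genes higher and 15.6% lower. In this step 95.4% of the genes tested changed less than Id3 and 94.2% less than Id1. The rises of Smad5 and Smad6 depended on single libraries. Smad5 did not pass without day 2 replicate 1 (adjusted p = 0.0708) or day 3 replicate 3 (0.142), and Smad6 did not pass without day 2 replicate 2 (0.0922) or day 3 replicate 1 (0.0743). From day 0 to day 3, 70.9% of all genes and 7 of the 9 passed. Bmpr1a, Smad5 and Id2 were higher on day 3, as were 35.0% of all genes, and Bmp4, Smad6, Id3 and Id4 were lower, as were 35.9%.

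**Figure D3:**
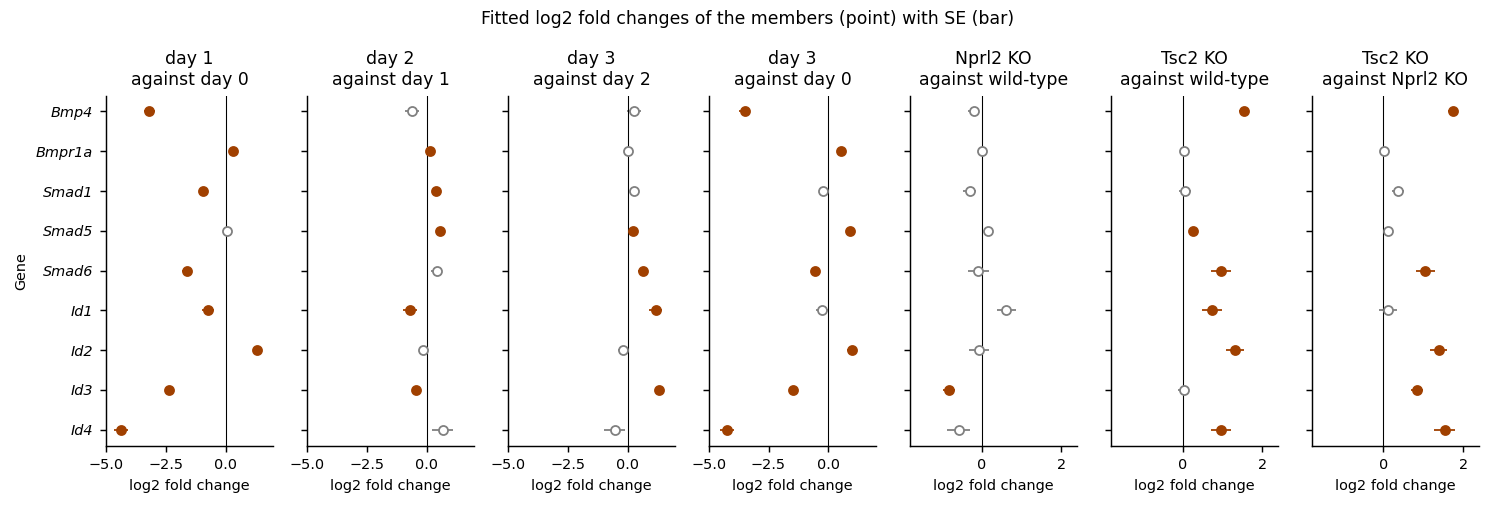
Fitted log2 fold changes (horizontal axes) of the 9 genes in the 7 comparisons, with bars for the SE. Filled points passed an adjusted p of 0.05, open points did not. The horizontal scale of the 4 panels of days differs from that of the 3 panels of genotypes. Bmp4 and Id4 lie furthest to the left on day 1, and in Tsc2 KO against wild-type the filled points are all to the right of 0.

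The knockout comparisons address how the loss of either negative regulator of mTORC1 affects cells that still express the Rex1 reporter. In Nprl2 KO cells 1 of the 9 genes passed the test, against 6.43% of the 13725 genes tested (2.78% higher and 3.66% lower). Id3 fell from 73.9 and 72.6 TPM in wild-type to 36.5 and 46.4 TPM in Nprl2 KO, with a log2FC of -0.82 (SE 0.15, adjusted p = 0.00666). Its call held without each library in turn (adjusted p from 0.00865 to 0.0452). Transcript length minus effective length, which follows the fragment length, was 227.9 bases in Nprl2 KO replicate 1, which had the lower Id3 value, and between 169.6 and 183.9 in the other 5 libraries. Its part in the result was not tested.

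The other Id genes did not pass in Nprl2 KO cells. Id1 was at 7.02 and 8.57 TPM in wild-type and at 12.9 and 11.1 TPM in Nprl2 KO (log2FC 0.62, SE 0.24, adjusted p = 0.16). Id4 was at 3.60 and 5.09 TPM in wild-type and 2.68 and 2.97 TPM in Nprl2 KO (-0.57, SE 0.28, adjusted p = 0.264). Id2 had overlapping groups (-0.06, SE 0.25, adjusted p = 0.927). Bmp4 (-0.19, SE 0.14, adjusted p = 0.472), Bmpr1a, Smad1, Smad5 and Smad6 were also not called, and their log2FC values lay between -0.30 and 0.16.

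**Figure D4:**
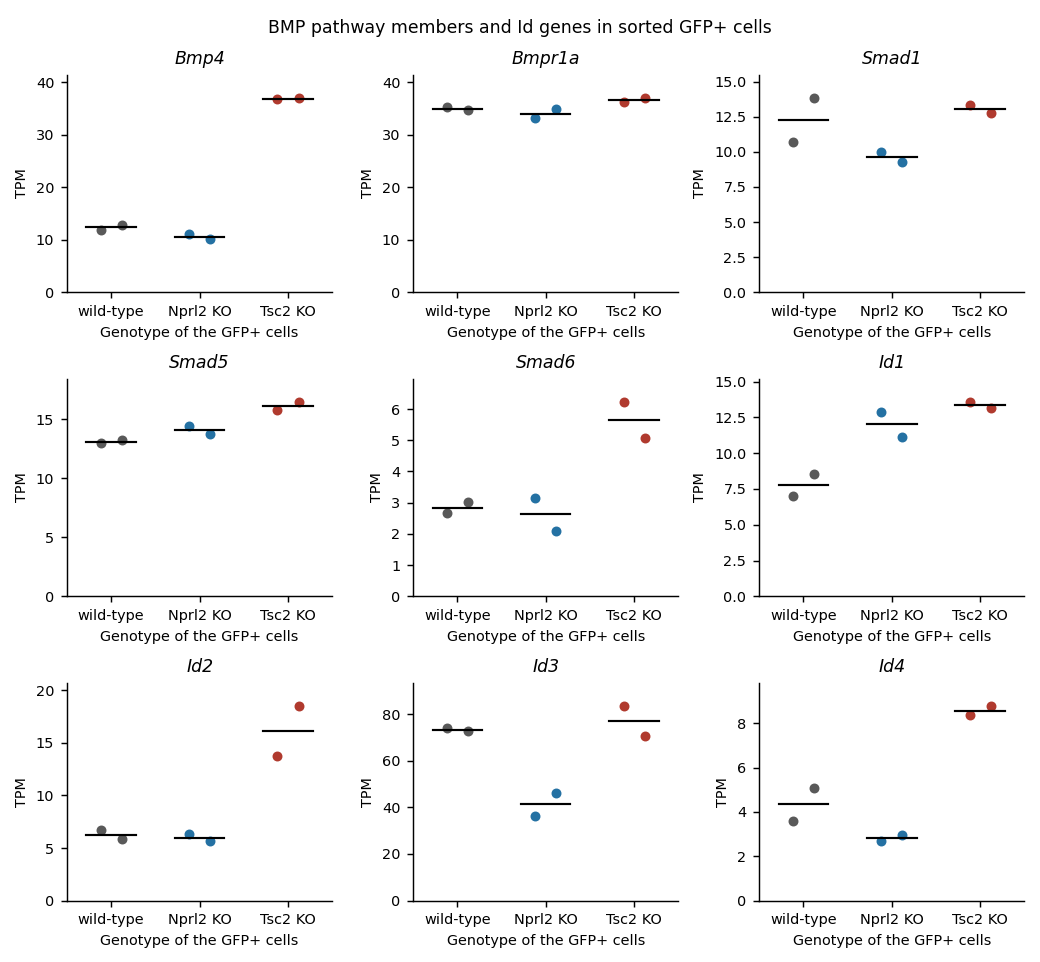
Levels in TPM (vertical axes, each starting at 0) of the 9 genes in sorted GFP+ cells of each genotype (horizontal axes). Each point is a library and black bars are the means of 2 libraries. The Tsc2 KO libraries of Bmp4, Id2 and Id4 are above all wild-type and Nprl2 KO libraries, and for Id3 the Nprl2 KO libraries (36.5 and 46.4 TPM) are below all others.

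In Tsc2 KO cells 6 of the 9 genes rose and the other 3 had log2FC values above 0, while 29.1% of all genes passed the test, 14.9% higher and 14.2% lower. The median log2FC was 0.74 over the 9 genes and 0.00 over all genes. Bmp4 was at 11.9 and 12.8 TPM in wild-type and at 36.8 and 37.0 TPM in Tsc2 KO, a log2FC of 1.55 (SE 0.13, adjusted p = 5.24e-06). Id2 was at 6.68 and 5.84 TPM in wild-type and at 13.8 and 18.5 TPM in Tsc2 KO (1.31, SE 0.23, adjusted p = 0.00103). These 2 rises passed in every alternative, with log2FC values of at least 1.46 for Bmp4 and at least 1.10 for Id2.

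The other 4 rises were less firm. Id4 was at 3.60 and 5.09 TPM in wild-type and at 8.35 and 8.77 TPM in Tsc2 KO (log2FC 0.96, SE 0.25, adjusted p = 0.0119). Smad6 went from 2.67 and 3.01 TPM to 6.22 and 5.08 TPM (0.96, SE 0.24, adjusted p = 0.0111), and Id1 from 7.02 and 8.57 TPM to 13.6 and 13.1 TPM (0.74, SE 0.24, adjusted p = 0.0355). Smad5 went from 13.0 and 13.2 TPM to 15.8 and 16.5 TPM (0.27, SE 0.09, adjusted p = 0.0393). The groups of none of these genes overlapped, but with 2 libraries per group this says little. The groups of Bmpr1a, which was not called (log2FC 0.03), did not overlap either. With DESeq2 none of the 4 passed (adjusted p = 0.0994 for Id4, 0.0555 for Smad6, 0.222 for Id1 and 0.165 for Smad5). Without wild-type replicate 1 the 4 calls were lost as well (0.132, 0.0821, 0.229 and 0.185 in the same order), without Tsc2 KO replicate 1 those of Smad6, Id1 and Smad5 were lost, without Tsc2 KO replicate 2 those of Id4, Id1 and Smad5, and without wild-type replicate 2 those of Id1 and Smad5.

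Id3, Smad1 and Bmpr1a were not called in Tsc2 KO cells. Id3 was at 83.4 and 70.8 TPM against 73.9 and 72.6 TPM in wild-type, with overlapping groups (log2FC 0.03, SE 0.14, adjusted p = 0.909, 95% interval -0.24 to 0.30). Smad1 had a log2FC of 0.06 (SE 0.15, adjusted p = 0.799) and Bmpr1a of 0.03 (SE 0.07, adjusted p = 0.751). The Id2 part of the summed Id TPM was 6.84% ± 0.70 (SD, n = 2) for wild-type, 9.69% ± 1.63 for Nprl2 KO and 14.1% ± 3.59 for Tsc2 KO. The sum was 91.7 TPM ± 0.67, 62.3 TPM ± 5.47 and 115 TPM ± 5.59 for these genotypes. With 2 against 2 libraries, an exact permutation test cannot go below p = 0.333.

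The direct comparison of the knockouts tests whether their effects differ. Against Nprl2 KO, Tsc2 KO had higher levels of 5 of the 9 genes, and the other 4 had log2FC values above 0, while 34.2% of all genes passed, 17.5% higher and 16.6% lower. The log2 difference was 1.74 for Bmp4 (SE 0.12, adjusted p = 1.1e-06), 1.53 for Id4 (SE 0.25, adjusted p = 0.000594), 1.38 for Id2 (SE 0.22, adjusted p = 0.000475), 1.05 for Smad6 (SE 0.24, adjusted p = 0.00506) and 0.84 for Id3 (SE 0.14, adjusted p = 0.000723). Smad6 did not pass without Nprl2 KO replicate 2 (0.77, adjusted p = 0.0629). Id1, with 12.9 and 11.1 TPM in Nprl2 KO and 13.6 and 13.1 TPM in Tsc2 KO, did not differ beyond the test (0.12, SE 0.22, adjusted p = 0.72, 95% interval -0.31 to 0.55).

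The summed levels of markers of cell state also differed between genotypes and between days. The summed TPM of 8 pluripotency markers was 3190 to 3290 for wild-type, 2709 to 3050 for Nprl2 KO and 4196 to 4351 for Tsc2 KO, and that of 6 formative markers was 459 to 573, 630 to 744 and 137 to 153. Of the 8 pluripotency markers 5 were called lower in Nprl2 KO and 6 higher in Tsc2 KO, and of the 6 formative markers 1 higher and 4 lower. In the time course the pluripotency sum was 4635 to 4857 TPM on day 0 and 1275 to 1557 TPM on day 3. The formative sum was 122.5 to 145.1 and 1286 to 1595 TPM on these days. That of 5 neural markers was 110 to 122 TPM on day 0, 15.1 to 18.2 on day 1 and 95.5 to 101 on day 3. The neural markers did not move together. Of the 4 tested, 1 was called higher and 1 lower on day 1 against day 0, and likewise on day 3 against day 0. Sums of primitive endoderm and of mesendoderm markers were at 11.4 TPM or less in every library. The summed TPM of 5 trophectoderm markers was 31.5 to 49.8 for wild-type, 73.2 to 118 for Nprl2 KO and 76.7 to 106 for Tsc2 KO. Of the 4 tested, 0 were called in Nprl2 KO, and 2 were higher in Tsc2 KO than in wild-type. Over the time course the trophectoderm sum went from 24.6 to 37.4 on day 0 to 383 to 675 on day 3. This list held the keratin genes Krt7, Krt8 and Krt18 besides Cdx2 and Elf5. Only 3 of the 5 were tested in the time course, and 3 were called higher on day 3 than on day 0. In such bulk samples fewer cells of a state and less RNA per cell cannot be told apart, and the part of cell state in the differences was not tested.

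The knockout and day comparisons share no libraries, so their signs can be set side by side. Among the 2940 genes called both in Tsc2 KO and over the first day, 80.9% went in opposite directions. Of the 9 genes 5 were called in both, and 4 of them were opposite, Bmp4, Smad6, Id1 and Id4 falling on day 1 and rising in Tsc2 KO, a share near that of all genes. Id2 was the exception and rose in both. In Nprl2 KO the 1 gene called, Id3, fell, as it did over the first day and from day 0 to day 3. Of the 654 and 698 genes called in Nprl2 KO and in these day comparisons, 32.7% and 40.0% went in opposite directions.

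**Figure D5:**
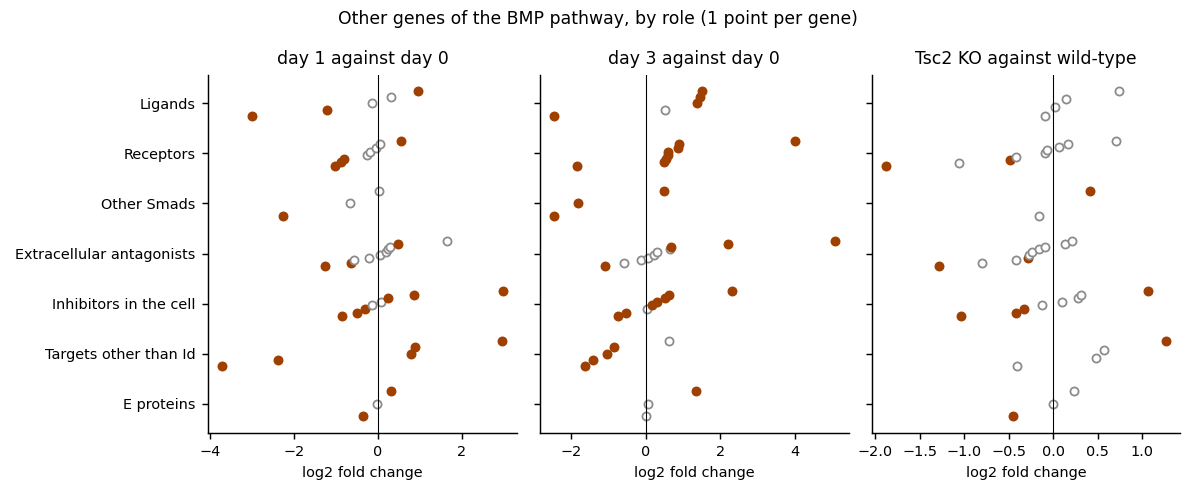
Log2 fold changes (horizontal axes) of the other BMP pathway genes, 1 point per gene, grouped by role (vertical axis). Filled points passed an adjusted p of 0.05. From day 0 to day 3 (middle panel) 7 of 8 receptor genes are filled to the right of 0, and the point furthest to the right is Chrdl1, which had 1 to 2 estimated counts per library on day 0.

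Of 61 other genes of the pathway, 42 were tested in the time course and 40 in GFP+ cells. Over the first day 10 of the 42 rose and 14 fell, which is 57.1% called, near the 60.9% of all genes. Smad7, the second inhibitory Smad, fell by 2.26 on the log2 scale (SE 0.16, adjusted p = 3.06e-08), and the ligand genes Bmp7 and Bmp8a fell by 2.99 (SE 0.39, adjusted p = 3.81e-05) and 1.21 (SE 0.28, adjusted p = 0.000919). Skil, which encodes a corepressor of Smads, rose by 2.98 (SE 0.21, adjusted p = 1.19e-06), the largest rise of the 8 inhibitors that act in the cell. The homeobox gene Msx1, with 2 to 10 estimated counts per library on day 0, rose by 2.95 (SE 0.41, adjusted p = 5.01e-06), and Fstl1, which encodes a secreted follistatin-like protein, fell by 1.26 (SE 0.10, adjusted p = 1.07e-08). With limma on log2(TPM + 1), which shrinks the changes of low genes, the calls of Bmp7, Bmp8a and Msx1 held with log2FC values of -1.98, -0.76 and 1.59.

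From day 1 to day 2, 18 of the 42 rose and 5 fell, 54.8% against 62.1% of all genes. Bmpr1b, which encodes the other BMP type I receptor of this name, went from 3 to 7 estimated counts per library to 53 to 69 (log2FC 3.50, SE 0.32, adjusted p = 1.99e-08, and 1.25 with limma on log2(TPM + 1)). Bmp7 rose by 2.34 (SE 0.42, adjusted p = 0.000413) and Bmp8b by 1.49 (SE 0.32, adjusted p = 0.000473). Of the genes of secreted BMP antagonists, Chrdl1 went from 1 to 6 estimated counts per library to 30 to 47 (log2FC 3.10, SE 0.37, adjusted p = 8.45e-07, and 1.03 with limma on log2(TPM + 1)), and Nbl1 rose by 1.98 (SE 0.35, adjusted p = 7.2e-05). Gata3, a transcription factor gene that BMP induces in other settings, fell by 2.65 (SE 0.36, adjusted p = 4.19e-06). On the log2(TPM + 1) scale the calls of Bmp7, Bmp8b, Nbl1 and Gata3 held, with 1.54, 0.81, 1.10 and -1.26.

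From day 2 to day 3, 13 rose and 4 fell, 40.5% against 31.5% of all genes. Bmp7 rose by 1.18 (SE 0.30, adjusted p = 0.0109) and Rgma, a BMP co-receptor gene, by 1.29 (SE 0.22, adjusted p = 0.000349). Eng, the co-receptor endoglin, and Dusp9, a MAP kinase phosphatase gene induced by BMP in mESCs, each fell by 1.09 (adjusted p = 1.06e-05 and 1.39e-05). From day 0 to day 3, 20 of the 42 rose and 11 fell, 73.8% against 70.9% of all genes, of which 35.0% were higher and 35.9% lower. Of the 8 receptor genes tested 7 rose and 1, Eng, fell (-1.86, SE 0.12, adjusted p = 2.88e-10), and Bmpr1b went from 3 to 8 estimated counts per library to 92 to 105, which its log2FC (4.01, and 1.64 with limma on log2(TPM + 1)) rests on. Of the 5 targets other than Id genes 4 fell and 0 rose. Over the first day alone, 3 of these 5 rose and 2 fell, against 30.1% and 30.8% of all genes. Dusp9 was among the 3 that rose on day 1 (log2FC 0.78, SE 0.11, adjusted p = 2.34e-05). These lists are small, and the counts describe them only. Chrdl1 went from 1 to 2 estimated counts per library on day 0 to 47 to 56 on day 3, and its fold depends on the setting (log2FC 5.08, and 1.38 with limma on log2(TPM + 1)).

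In GFP+ cells the share of pathway genes called was near that of all genes, 2 of 40 against 6.43% in Nprl2 KO and 27.5% against 29.1% in Tsc2 KO. In Nprl2 KO 1 of 40 rose and 1 fell: Eng by 0.73 (SE 0.16, adjusted p = 0.0245) and Fstl1 by -0.63 (SE 0.14, adjusted p = 0.0462). Each of the 2 calls was lost in some alternatives, and Fstl1 in all 4 fits without a library. In Tsc2 KO 3 rose and 8 fell. Dusp9 rose by 1.27 (SE 0.12, adjusted p = 1.69e-05) and Tob1, whose protein binds Smads and dampens BMP signalling in bone cells, by 1.07 (SE 0.12, adjusted p = 5.08e-05). Skil fell by 1.04 (SE 0.13, adjusted p = 0.000476) and Rgma by 1.88 (SE 0.34, adjusted p = 0.00152), or 0.97 with limma on log2(TPM + 1). The falls of the antagonist gene Grem1 (-1.28, SE 0.40, adjusted p = 0.0298) and the receptor gene Acvr2b (-0.49, SE 0.17, adjusted p = 0.049) did not pass with DESeq2 (0.26 and 0.129). Grem1 and Fstl1 are also genes of fibroblasts, whose markers were present in GFP+ libraries at the levels given above.

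Against Nprl2 KO, 5 of the 40 were higher in Tsc2 KO and 8 lower, 32.5% against 34.2% of all genes. Dusp9 (1.11, SE 0.12, adjusted p = 2.61e-05), Gata3 (1.76, SE 0.32, adjusted p = 0.00103) and Smad7 (0.90, SE 0.13, adjusted p = 0.000273) were higher. Skil (-1.40, SE 0.13, adjusted p = 6.18e-05), Rgma (-1.51, SE 0.35, adjusted p = 0.00514) and the follistatin gene Fst (-1.63, SE 0.28, adjusted p = 0.00194) were lower. Rgma did not pass without Nprl2 KO replicate 2 (-1.26, adjusted p = 0.057), and was -0.69 with limma on log2(TPM + 1), where Gata3 was 1.14. Smad7 and Smad6, the inhibitory Smads, were thus both higher in Tsc2 KO than in Nprl2 KO.

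The genes whose log2 CPM (counts scaled to the library total) ran most like that of each gene over the 12 time-course libraries were sought among 6094 genes whose day means spanned at least 1 log2 unit. For Bmp4 they were Stk38 (Pearson r = 0.992), Kdm3b (0.992) and Fzd5 (0.990), for Id4 Aldh3a1 (0.984), Ripk3 (0.983) and Grasp (0.983), and for Id3 Trak1 (0.979), Ahnak (0.978) and Dact2 (0.978). For Smad6 they were Arvcf (0.980), Slc2a3 (0.973) and Litaf (0.973). Id2 was most like Ccdc136 (0.964), Skil (0.955) and G2e3 (0.955), and Id1 had the loosest match, to Aamdc (0.901) and Plgrkt (0.899). These values describe libraries that share their day, and with 4 days many genes take the same course.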

How the data were processed

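RNA-seq was analysed for 12 time-course and 6 GFP+ libraries. Per the labels, the authors used kallisto 0.42.1 with genome build mm10, and DESeq2, whose version is not given in the sources used here. They deposited, per RefSeq transcript, estimated counts and TPM, without normalization between libraries, and a gene table of TPM, from which the levels were taken. Fold changes and p values of the authors' own comparisons of each KO with wild-type were not used. Estimated counts of 34079 transcripts, less 174 without a gene, were summed over 24296 genes through RefSeq names of GRCm38.p6 and GENCODE M21, and rounded. They were fitted with edgeR 4.0.16 in R 4.3.3 (TMM, filterByExpr, robust quasi-likelihood test, Benjamini-Hochberg adjustment over all genes, threshold 0.05), separately for the experiments. The SE is the log2 fold change divided by the square root of F. Reads shared between near-identical genes were divided by kallisto. A count of 0 allows up to 3 counts, 0.196 to 0.348 CPM, for counting error only.

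The alternatives were DESeq2 1.42.0, upper-quartile normalization, no filter, a minimum of 10 counts in each library, the replicate block, only the 2 groups compared, limma 3.58.1 on log2(TPM + 1) and log2(TPM + 0.1) for genes of at least 1 TPM, and leaving out each library. Named are the 9 genes, up to 6 called pathway genes per comparison with the largest fold change among those whose mean log2 CPM was 0 or more, and the 3 genes most like each of 6 members, of which 1 is not reported here. The members, lists and markers, written from general knowledge, were chosen with earlier results of these data known. Fits were tested on simulated data with known changes in 200 genes and none in the others, far fewer than were called between days. The outcome is not reported here. Promoter sequences are from RefSeq.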

Additional observations from a re-analysis of the deposited data

Results flagged for a closer look

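For 5 of the 9 genes the effects of the 2 knockouts differed by a test of the difference itself, the contrast of Tsc2 KO with Nprl2 KO, which is the difference of their log2 fold changes against the shared wild-type libraries. Tsc2 KO was higher by 1.74 for Bmp4, 1.05 for Smad6, 1.38 for Id2, 0.84 for Id3 and 1.53 for Id4 on the log2 scale, and 34.2% of all genes passed this contrast. Bmp4, Id2, Id3 and Id4 kept the call in all 12 alternatives, and Smad6 lost it in 1, without Nprl2 KO replicate 2. Against wild-type, Id3 had a log2 fold change of -0.82 in Nprl2 KO and 0.03 in Tsc2 KO, whereas Bmp4, Smad6 and Id2 had -0.19, -0.08 and -0.06 in Nprl2 KO, none of them called, and 1.55, 0.96 and 1.31 in Tsc2 KO. The cause of the differences was not tested.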

How the results depend on the processing

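For the 9 genes, 470 of 498 log2 fold changes under alternatives other than leaving out a library kept their direction and side of the threshold, 18 lost and 8 gained a call, and 2 changed sign. The 2 were Bmpr1a in Nprl2 KO, -0.036 and -0.037 with limma on log2(TPM + 1) and log2(TPM + 0.1). When single libraries were left out, 277 of 324 kept both, 33 lost and 4 gained a call, and 10 changed sign, none of them called. These belonged to Id2 from day 1 to day 2 (range -0.28 to 0.034), to Bmpr1a (-0.024 to 0.031), Smad6 (-0.40 to 0.20) and Id2 (-0.14 to 0.022) in Nprl2 KO, to Smad1 (-0.15 to 0.26) and Id3 (-0.10 to 0.16) in Tsc2 KO, and to Bmpr1a between the knockouts (-0.0065 to 0.060).

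From day 1 to day 2 the number of the 9 genes called was 5, and 3 with DESeq2, upper-quartile normalization or no filter, and 2 to 4 without single libraries. In Tsc2 KO it was 6, and 2 with DESeq2 and 2 to 4 without single libraries. Of the pathway genes, 14 (of 28 tested, fewer than the 42) were called from day 1 to day 2 with 10 counts in every library, against 23. From day 2 to day 3 they were 17, and 11 to 20 without single libraries. In Nprl2 KO they were 2, against 1 with upper-quartile normalization, with 10 counts in every library or with limma on log2(TPM + 1), 0 with limma on log2(TPM + 0.1), 6 without a filter (58 tested) and 0 to 3 without single libraries. In Tsc2 KO they were 11, against 7 with DESeq2 or limma on either scale and 7 to 8 without single libraries. The cause of these changes was not tested. The largest moves of the median of all genes were from day 1 to day 2, by 0.079 with upper-quartile normalization, 0.087 with limma on log2(TPM + 1) and 0.098 on log2(TPM + 0.1).

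In the time course same-numbered libraries did not deviate together throughout (r from -0.11 to 0.13). In GFP+ cells every same-numbered pair had a weak positive r (0.08 to 0.16). The numbers were not taken as pairs in the main fit of either experiment, and the replicate block is the alternative that does so. With the replicate block, 7 pathway genes and 2072 of all genes were called in Nprl2 KO, against 2 and 883. Of the 9 genes, 6 were called from day 1 to day 2 (Bmp4 gained, adjusted p = 0.0334) and 6 between the knockouts (Smad1 gained, adjusted p = 0.0346), and the block changed no other call of theirs. Where a library was left out of a genotype, the lone library was assumed to vary like the others. Depth limits Id4 after day 0 and Id1, which rested on 13 to 75 estimated counts per library.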

Other observations

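Of the 3 genes of E proteins, which Id proteins bind, Tcf12 rose from day 0 to day 3 by 1.35 on the log2 scale (SE 0.07, adjusted p = 1.9e-12), and Tcf3 fell in Tsc2 KO by 0.46 (SE 0.07, adjusted p = 0.00071). Smad5 was the only one of the 9 genes with several transcripts in the table, and 1 of its 3 held at least 83.4% of its mean TPM in each group. Smad4, the shared partner of Smad1 and Smad5, rose from day 0 to day 3 by 0.49 (SE 0.05, adjusted p = 6.23e-08). Tcf12, Tcf3 and Smad4 were named here after their values were seen.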
